A study of Mus musculus with 463 samples.

Results

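The genes described here are 33 genes of the mouse listed as acinar. They are 29 genes listed as secretory products, 1 receptor (Cckar) and 3 transcription factors (Rbpjl, Bhlha15 and Nr5a2). They were chosen by name, as listed symbols that occur in both deposited read count tables, and make up 33 of the 40824 genes counted. The rule for their choice used no expression value, but the list was drawn up with earlier results of these data known. The amylase among the 33 is Amy1, and the pancreatic amylases Amy2b and Amy2a5 named below are not members. RNA was measured on the dorsal and the ventral side of the embryonic pancreas, in 16 bulk libraries of sorted cells (8 groups of 2) and in 447 single cells (12 groups). The bulk groups are E10.5 Pdx1-GFP+ cells of the Pdx1-expressing region, E14.5 Ngn3-GFP-low and Ngn3-GFP-high cells, and E17.5 Ins1-RFP+ cells, each from the dorsal and the ventral side. The single cells are E9.5 Pdx1-GFP+ cells and, at E10.5, Pdx1-GFP+, Pdx1-GFP-high and Pdx1-GFP-low cells of each side, ventral Pdx1-GFP-low cells split by the surface antigen Liv2, Liv2+ cells of the liver bud, and 4 E15.5 liver cells that carried Pdx1-Cre and a ROSA26-tdTomato reporter. Liver bud cells were sorted by Liv2 alone and all other groups by a fluorescent reporter, no group is labelled as treated, and the labels name neither a strain nor how the reporter alleles were made. A reporter protein can outlast the promoter that made it, so a sorted group may include cells that no longer transcribe the gene of its name.

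Acinar cells form the bulk of the exocrine pancreas and store digestive enzymes as inactive precursors in zymogen granules. Their enzymes fall into peptidases (carboxypeptidases, elastases, chymotrypsins and trypsins), lipases with their cofactor colipase, amylase and ribonuclease. In the mouse pancreas, multipotent progenitors switch on Cpa1 early, and the tips of the branching epithelium then turn into acinar cells while the trunk gives rise to duct and endocrine cells. The trimeric complex PTF1 drives many acinar promoters. It contains Ptf1a with a common bHLH partner, which bind an E-box, and RBPJ or its pancreatic relative RBPJL, which binds a TC-box next to it. Nr5a2 and Bhlha15 (Mist1) are further regulators of acinar maturity, and Ngn3 (Neurog3) starts the endocrine program.

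Because PTF1 reads an E-box and a TC-box on the same stretch of DNA, the 250 bases before the RefSeq start of each gene (GRCm38.p6) were searched for CANNTG and for TTTCCC on both strands. The motifs do not overlap one another in the sequences printed. RefSeq promoters were matched for 27 of the 33 genes, and Clps, Ctrc, Try10, Zg16, Try5 and Cckar had no entry in the table used. Both motifs were found in 8 of the 27 (29.6%), against 14.2% of 27025 promoters of the same length. An E-box was found in 22 of 27 (81.5%, against 66.0%) and a TC-box in 8 of 27 (29.6%, against 21.9%). Windows of 6 genes are shown, 5′ to 3′ on the strand of the gene, since they belong to genes with different first stages in the data. E-boxes and TC-boxes in either orientation are in capitals. The rule for the first stage was 1 CPM in every set or library of 1 side. By this rule, Cpa1 and Pnliprp1 belong to E9.5, Cela1 to E10.5, Ctrb1 and Cpb1 to E14.5, and Prss1 to E17.5. Reads at earlier stages need not meet it, as with those of Ctrb1 in E10.5 Pdx1+ single cells.
Cpa1: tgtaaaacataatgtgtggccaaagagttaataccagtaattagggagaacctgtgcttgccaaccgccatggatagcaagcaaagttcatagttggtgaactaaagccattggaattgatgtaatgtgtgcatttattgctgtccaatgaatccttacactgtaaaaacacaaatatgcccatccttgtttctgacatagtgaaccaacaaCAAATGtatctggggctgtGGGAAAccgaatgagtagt
Pnliprp1: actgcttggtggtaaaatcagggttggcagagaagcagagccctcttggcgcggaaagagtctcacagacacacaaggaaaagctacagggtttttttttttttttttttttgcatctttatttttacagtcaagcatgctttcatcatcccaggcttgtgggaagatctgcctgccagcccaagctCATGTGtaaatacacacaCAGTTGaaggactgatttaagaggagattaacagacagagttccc
Cela1: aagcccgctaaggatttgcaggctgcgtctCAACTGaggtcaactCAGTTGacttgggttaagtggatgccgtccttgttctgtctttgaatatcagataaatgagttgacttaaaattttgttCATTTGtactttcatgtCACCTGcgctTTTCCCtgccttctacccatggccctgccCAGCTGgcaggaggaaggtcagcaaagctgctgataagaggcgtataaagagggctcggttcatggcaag
Ctrb1: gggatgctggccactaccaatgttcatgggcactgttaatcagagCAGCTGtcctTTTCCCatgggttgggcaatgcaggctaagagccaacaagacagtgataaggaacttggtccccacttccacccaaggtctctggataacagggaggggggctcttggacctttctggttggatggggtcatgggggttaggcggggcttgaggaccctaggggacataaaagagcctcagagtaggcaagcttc
Cpb1: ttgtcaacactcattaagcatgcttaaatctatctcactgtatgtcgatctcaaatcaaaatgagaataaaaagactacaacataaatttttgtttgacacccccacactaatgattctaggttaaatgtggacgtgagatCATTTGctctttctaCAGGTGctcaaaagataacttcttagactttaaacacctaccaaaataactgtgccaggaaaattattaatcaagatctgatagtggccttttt
Prss1: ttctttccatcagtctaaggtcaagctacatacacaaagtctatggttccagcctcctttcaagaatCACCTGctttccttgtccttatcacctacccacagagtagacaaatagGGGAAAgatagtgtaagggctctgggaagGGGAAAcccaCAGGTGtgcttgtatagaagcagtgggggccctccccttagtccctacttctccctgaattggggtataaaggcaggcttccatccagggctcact

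In the windows of Cela1, Ctrb1 and Prss1 an E-box and a TC-box start exactly 10 bases apart. This spacing was chosen after the letters were seen. It occurred in 3 of the 27 acinar promoters (11.1%) and in 52 of the 27025 (0.192%). The 3 genes reached 1 CPM by that rule at 3 different stages. In Cpa1 the only pair of motifs starts 19 bases apart, and Pnliprp1 and Cpb1 have no TTTCCC in the window. A match describes the letters and says nothing about binding. The windows lie at chr6:30638968-30639217 on the plus strand (Cpa1), chr19:58728637-58728886 on the plus strand (Pnliprp1), chr15:100687921-100688170 on the minus strand (Cela1), chr8:111691011-111691260 on the minus strand (Ctrb1), chr3:20275734-20275983 on the minus strand (Cpb1) and chr6:41458680-41458929 on the plus strand (Prss1).

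Reads counted on genes ranged from 8779418 to 24551520 per bulk library and from 201191 to 1738015 per cell, with a median of 1064163 per cell. Levels are CPM, the read count of a gene scaled to the TMM-adjusted total of the genes tested, and levels of different genes are compared only per kilobase (RPKM). Tests used edgeR (quasi-likelihood F), with p-values adjusted over all genes by the method of Benjamini and Hochberg and a threshold of 0.05. Cells were summed per numbered set, and sets of 3 or more cells served as replicates. The labels do not say whether a number stands for an embryo, a litter or a plate, and nothing says that the 2 bulk libraries of a group came from separate pools, so p-values measure only the spread between these samples, which may be technical. The sorts matched their defining genes: Neurog3 stood at 860.3 to 1011 CPM in Ngn3-high and 98.4 to 149 CPM in Ngn3-low libraries, and Ins1 at 24166 CPM or more in Ins1+ libraries. One set stood apart, dorsal E10.5 Pdx1+ set 3, where Pdx1 was 3.63 CPM and Ptf1a 0 CPM against 181 or more and 65.8 or more in the other 2 sets.

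Some members share sequence with a neighbour, and their split of reads is uncertain. The share of 50-base words found in another gene was 66.1% for Prss3, 65.6% for Try4, 54.9% for Prss1, 47.6% for Try5, 40.8% for Try10 and 33.3% for Amy1. It was 24.0% for Klk1, 19.3% for Cela3b, 17.7% for Ctrc, 15.6% for Cela2a and 7.83% for Prss2, and under 4% for the other 22. Amy1 shared most with Rnpc3 (31.8% of its words). All 6 trypsinogens lie in 1 cluster on chromosome 6 (41302269 to 41525079), and Ctrc and Cela2a overlap on chromosome 4 (141814962 to 141846359).

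The 33 genes reached a fixed level at different stages, and not all of them stayed above it. Each was assigned the earliest stage at which it reached 1 CPM in every set or library of 1 side, a description without a test. At E9.5, 8 genes reached that level: the carboxypeptidase Cpa1, the lipase family members Pnliprp1, Pnliprp2, Clps (colipase) and Pla2g1b (phospholipase A2), the granule protein Sycn, Cckar, the cholecystokinin receptor, and Nr5a2. At E10.5, 7 more did, namely Cela1, Ctrl, Prss2, Amy1, Reg1, Bhlha15 and Rbpjl. Another 6 reached it in E14.5 Ngn3-low libraries (Cpb1, Cela3b, Ctrb1, Try5, Cel and Serpini2). A further 11 reached it only in the E17.5 Ins1+ libraries, among them Cela2a, Ctrc, Rnase1, the zymogen granule gene Zg16 and 4 of the 6 trypsinogens (Prss1, Prss3, Try4 and Try10). Pnlip, the classic pancreatic triglyceride lipase, never did, with 0.962 and 0.865 CPM in dorsal and 0.847 and 1.04 CPM in ventral Ins1+ libraries. Its neighbours on chromosome 19, Pnliprp1 (58728887 to 58744169) and Pnliprp2 (58759719 to 58777534), were both in the earliest class. Pnliprp2 and Sycn did not meet the rule on either side at E10.5, in sets or in bulk, and met it in Ngn3-low libraries. Pla2g1b did not meet it in Ngn3-low libraries of either side, and Ctrl not in the dorsal ones. Any 1 set can keep a gene from meeting the rule. E10.5 Pdx1+ cells had 3 sets a side against 2 at E9.5, among them dorsal set 3 and a ventral set of 4 cells. E9.5 was measured only in single cells and the Ngn3-low and Ins1+ groups only in bulk, so stage and method cannot be told apart. Ctrb1 had reads in E10.5 Pdx1+ cells that did not meet the rule. At 5 CPM the classes held 6, 3, 6, 13 and 5 genes, so the E10.5 class shrank most and the class never reached grew from 1 to 5.

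**Figure D1:**
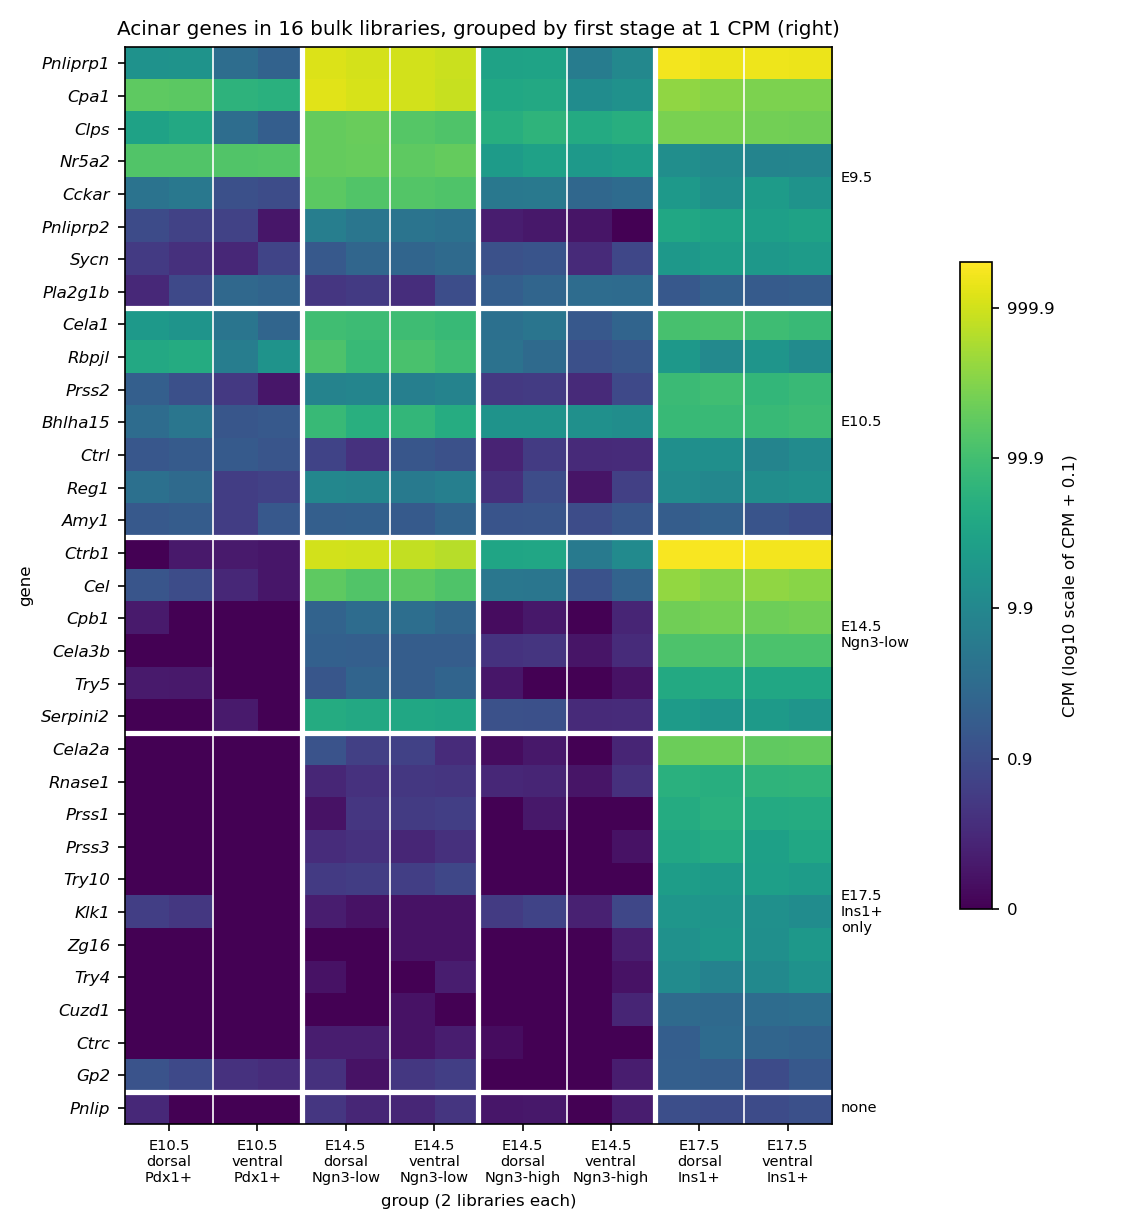
CPM of the 33 acinar genes (rows, colour on a log10 scale of CPM + 0.1) in the 16 bulk libraries (columns, 2 per group, white lines between groups), with rows ordered by the first stage at which a gene reached 1 CPM in every set or library of a side. Ctrb1 is dark in all E10.5 libraries and bright in E14.5 Ngn3-low and E17.5 Ins1+ libraries, and the class marked E17.5 Ins1+ only stays below 1 CPM before E17.5 except for Cela2a in 1 dorsal Ngn3-low library and Gp2 in 1 dorsal E10.5 library.

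The share of single cells with a Cpa1 read varied between sets as well as between E9.5 and E10.5. At E9.5 it had a read in 4 of 31 dorsal and 13 of 44 ventral Pdx1+ cells. At E10.5 it had one in 20 of 27 dorsal cells (74.1%, exact 95% interval 53.7 to 88.9%) and 34 of 59 ventral cells (57.6%, 44.1 to 70.4%). These shares and intervals pool unlike sets. Ventral sets held 11 of 28 and 2 of 16 such cells at E9.5 and 13 of 33, 20 of 22 and 1 of 4 at E10.5, so the higher pooled ventral share rests on set 2. Dorsal sets held 2 of 7 and 2 of 24 at E9.5 and 8 of 11, 10 of 10 and 2 of 6 at E10.5. In liver bud Liv2+ cells, which should lack it, 3 of 23 cells had a read (13.0%), with at most 0.804 CPM in a cell, at median depths of 1243844 reads there and 580295 to 806787 in E10.5 Pdx1+ cells. The dorsal E9.5 share (12.9%) did not exceed this background share. After thinning each cell to 100000 reads, 9.68% of dorsal and 27.3% of ventral E9.5 cells kept a Cpa1 read, against 0% in the liver bud. Cpa1 in the summed sets was 28.4 and 3.19 CPM in dorsal and 12.1 and 6.82 CPM in ventral E9.5 sets, and 155, 212 and 5.15 CPM in dorsal and 114, 124 and 17.8 CPM in ventral E10.5 sets. The dorsal value of 5.15 CPM is that of set 3.

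No member passed the test between E9.5 and E10.5 on either side. Of the 20 members tested in sets, edgeR called 0 on the dorsal side (5 at an unadjusted p under 0.05, against 8.79% of all genes, and 3 by DESeq2: Cela1, Prss2 and Rbpjl), where 0.275% of all genes were called. On the ventral side it called 0 (0 at an unadjusted p under 0.05, against 2.17% of all genes, and 0 by DESeq2), where 0% of all genes were called. The median log2 difference of the 20 members was 2.69 dorsally and 1.37 ventrally, against 0.00245 and -0.00979 for all genes. With 2 and 3 sets per group only large and even changes could pass. The 13 members that did not pass the filter on low counts in sets were Cpb1, Cela2a, Cela3b, Ctrc, Prss3, Try4, Try5, Try10, Pnlip, Rnase1, Cuzd1, Zg16 and Serpini2.

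Pnliprp1 and Nr5a2 were not restricted to Pdx1+ cells. Pnliprp1, a lipase relative, had a read in 20 of 23 liver bud Liv2+ cells, with 96.5 and 81.7 CPM in the 2 sets. It had a read in 14 of 31 dorsal E9.5 cells, with 10.0 CPM in set 1 and 285 CPM in set 2, and in 6 of 39 ventral Pdx1-high cells, with 0 to 3.42 CPM. Nr5a2, which also acts in liver, had a read in 23 of 23 liver bud cells, in 37 of 39 ventral Pdx1-low cells and in 8 of 40 dorsal Pdx1-low cells. Clps did the reverse: it had a read in 39 of 40 dorsal Pdx1-low cells and in 2 of 39 ventral Pdx1-low cells. The dorsal Pdx1-low sets also held Ins1, at 191 to 2529 CPM, against 0.201 to 45.4 CPM in the ventral Pdx1-low sets, and the part of such endocrine cells in the Clps level was not tested.

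At E10.5, Cpa1, Nr5a2 and Rbpjl were among the genes higher in dorsal Pdx1-high than in dorsal Pdx1-low cells. In the dorsal comparison of Pdx1-high with Pdx1-low sets (5 and 6 sets), 6 of the 20 tested members rose and 1 fell, where 24.1% of all genes were called and the median log2 difference was 2.38 for the members and 0.0 for all genes. Those that rose were Cpa1 (log2 difference 6.25, SE 1.52, adjusted p = 0.00376), Nr5a2 (5.12, SE 0.78, adjusted p = 1.7e-05), Reg1, Rbpjl, Prss2 and Gp2. Cpa1 was 77.6, 237, 158, 684 and 193 CPM in the dorsal Pdx1-high sets and 0, 0, 0, 14.8, 5.44 and 1.98 CPM in the Pdx1-low sets, so the groups did not overlap. Nr5a2 was 53.1, 28.1, 29.0, 45.5 and 15.9 CPM against 0, 2.48, 0, 3.17, 0 and 0.757 CPM, again without overlap. The share of all genes without overlap was not counted. Rbpjl, the pancreatic PTF1 subunit, was 6.20, 26.1, 5.59, 2.60 and 31.8 CPM against 0, 0, 0, 3.69, 0 and 0.126 CPM. Reg1, a secreted lectin of acinar cells, was at 0 in all 6 dorsal Pdx1-low sets and between 0 and 41.6 CPM in the Pdx1-high sets.

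Prss2 and Gp2 each rested on few sets. Prss2 was above 0 in 2 of 5 Pdx1-high sets (2.65 and 24.4 CPM) and Gp2, a granule membrane protein, in 1 of 5 (21.3 CPM). Klk1, a kallikrein, went the other way, with 0 in all 5 Pdx1-high sets and 16.0, 5.23 and 7.87 CPM in 3 of 6 Pdx1-low sets. Gp2, Prss2 and Rbpjl lost their call when one or another set was left out, which left 4 to 7 calls. DESeq2 called 4 members, and with the set number as a block edgeR called 5.

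On the ventral side 3 of 20 members rose in Pdx1-high against Pdx1-low sets (5 and 5 sets), where 0.964% of all genes were called: Clps (log2 difference 8.17, SE 1.28, adjusted p = 0.000697), Rbpjl (8.89, SE 2.06, adjusted p = 0.0262) and Cela1 (6.90, SE 1.73, adjusted p = 0.042). The median log2 difference was 3.87 for the members and -0.00191 for all genes. Clps was 4.39, 4.44, 157, 31.3 and 33.2 CPM in Pdx1-high and 0, 0, 0.749, 0 and 0.0624 CPM in Pdx1-low sets. Cela1, an elastase, was 0, 9.61, 33.9, 37.9 and 53.3 CPM against 0, 0, 1.05, 0 and 0.0624 CPM. Clps kept its call whichever set was left out, while Cela1 or Rbpjl lost theirs in 8 of 10 cases, with 1 to 3 calls in all, and Clps was the 1 member called with the set number as a block. Cpa1 did not pass on this side, with 326, 440.3, 282.5, 54.0 and 381 CPM in Pdx1-high and 0.0955, 34.1, 0, 0 and 0.125 CPM in Pdx1-low sets, where set 2 lay far above the other 4.

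Within Pdx1-high cells, 0 of the 20 members differed between the sides (4 at an unadjusted p under 0.05, 0 by DESeq2), where edgeR called 0.0172% of all genes. The same held in E9.5 Pdx1+ sets (0 called, 1 at an unadjusted p under 0.05, 0 by DESeq2, with 0% of all genes called) and in E10.5 Pdx1+ sets (0 called, 3 at an unadjusted p under 0.05, 0 by DESeq2, with 0.402% of all genes called). Cpa1 and Ptf1a were found together in 23 of 28 dorsal and 30 of 39 ventral Pdx1-high cells. A cell held reads of a median of 3 of the 29 secretory genes in the dorsal and 2 in the ventral Pdx1-high group, with at most 7 and 9.

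**Figure D2:**
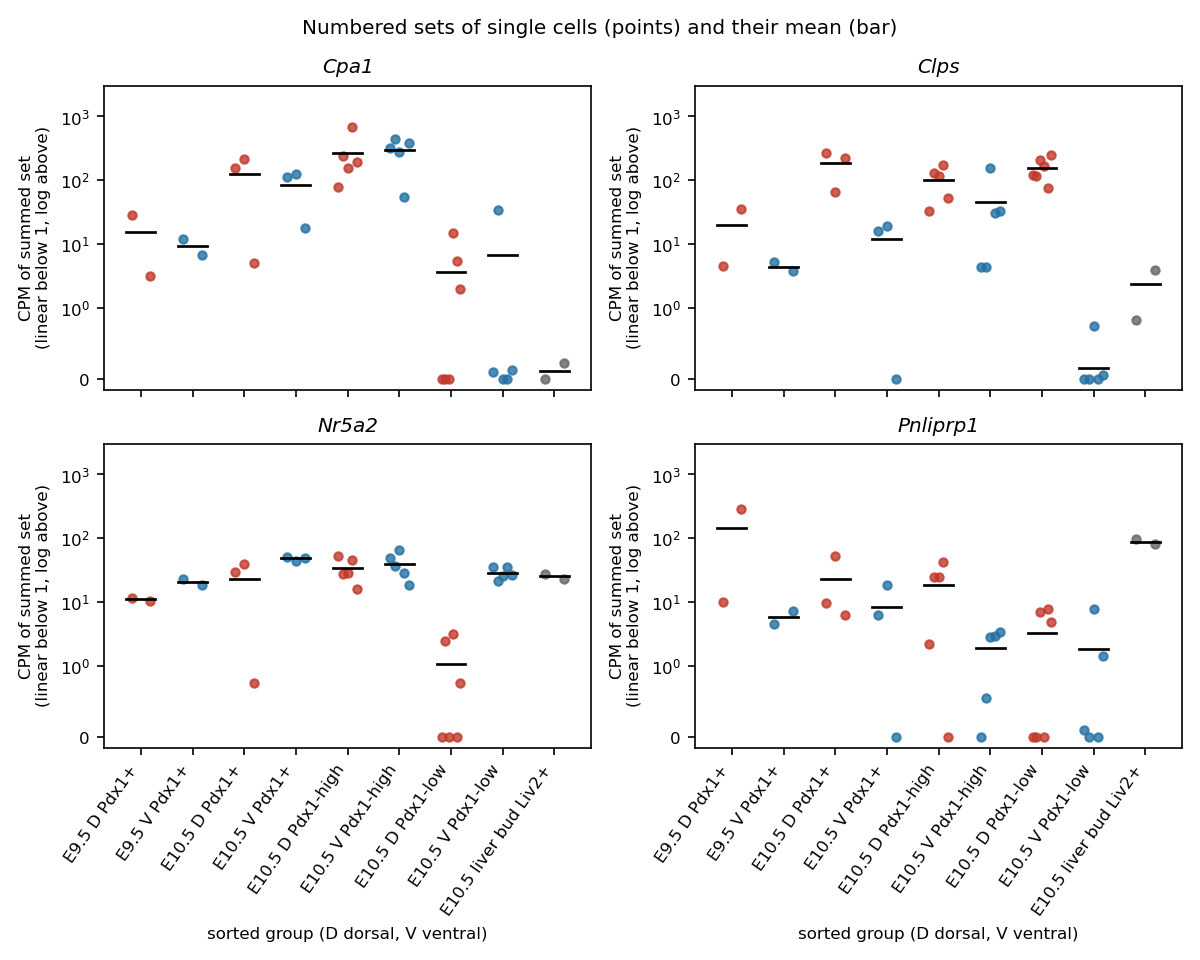
CPM of Cpa1, Clps, Nr5a2 and Pnliprp1 in the numbered sets of 9 sorted groups of single cells (points, red dorsal, blue ventral, grey liver bud), with the mean of the sets as a bar, on an axis that is linear below 1 CPM and logarithmic above. The mean of Cpa1 is highest in the Pdx1-high sets of each side, whose lowest sets (77.6 CPM dorsal, 54.0 CPM ventral) lie below 2 of the 3 Pdx1+ sets, Clps is high in dorsal but not in ventral Pdx1-low sets, Nr5a2 is low in dorsal Pdx1-low sets and in 1 dorsal Pdx1+ set, and Pnliprp1 is highest in 1 dorsal E9.5 set and the 2 liver bud sets.

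In the E10.5 bulk libraries, ventral Pdx1+ cells held less RNA of 11 acinar genes than dorsal ones and more of 1, where 24.7% of all genes tested were called. The 11 were the peptidases Cpa1, Cela1 and Prss2, the lipase genes Pnliprp1, Cel and Clps, the secreted Reg1 and Klk1, the receptor Cckar and the regulators Bhlha15 and Rbpjl. The median log2 difference (ventral minus dorsal) was -0.691 for the 33 members and -0.0306 for all genes. In a bulk library, fewer cells of a type and less RNA per cell cannot be told apart.

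Among the peptidases, Cpa1 was 171 and 164 CPM in dorsal and 59.3 and 53.7 CPM in ventral libraries (log2 difference -1.57, SE 0.12, adjusted p = 4.85e-08). Cela1 was 21.3 and 16.6 CPM against 4.62 and 2.41 CPM (-2.46, SE 0.24, adjusted p = 1.99e-06). Prss2, a trypsinogen, was 1.93 and 1.00 CPM against 0.411 and 0.0831 CPM. The 2 sides did not overlap for any of these 3 genes, a weak criterion with 2 libraries a side, and the share of all genes without overlap was not counted. In bulk, Ctrb1, chymotrypsinogen B, was absent or nearly so on both sides, with 0 and 0.1004 CPM in dorsal and 0.103 and 0.0831 CPM in ventral libraries. E10.5 Pdx1+ single cells did hold reads of Ctrb1, as given at the end.

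Of the lipase genes, Clps showed the most significant difference of all 33, with 29.7 and 38.7 CPM in dorsal and 3.39 and 1.83 CPM in ventral libraries, 13.1-fold (log2 difference -3.75, SE 0.23, adjusted p = 1.3e-08). Pnliprp1 was 15.8 and 16.2 CPM against 3.28 and 2.16 CPM (-2.57, SE 0.23, adjusted p = 5.27e-07). Cel, which hydrolyses bile-salt-emulsified esters, was 1.29 and 0.904 CPM against 0.205 and 0.0831 CPM, the latter resting on 3 reads. Pla2g1b was the 1 gene higher in ventral libraries, with 2.77 and 2.33 CPM against 0.214 and 0.803 CPM. In single cells Pla2g1b had a read in 37 of 44 ventral and 12 of 31 dorsal E9.5 cells. Reg1 was 3.75 and 2.91 CPM in dorsal and 0.513 and 0.582 CPM in ventral libraries, and Amy1, Rnase1 and Pnlip were at 1.71 CPM or less in all 4.

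The receptor and the regulators did not move alike. Cckar was 4.18 and 5.22 CPM in dorsal and 1.03 and 0.914 CPM in ventral libraries. Rbpjl was 39.7 and 44.2 CPM against 6.67 and 16.0 CPM (log2 difference -1.86, SE 0.43, adjusted p = 0.0113), and Bhlha15 3.22 and 4.82 CPM against 1.33 and 1.496 CPM (-1.499, SE 0.44, adjusted p = 0.0253). Nr5a2 was 137 and 137.5 CPM in dorsal and 138 and 142 CPM in ventral libraries (0.03, SE 0.11, adjusted p = 0.897). Ptf1a, the PTF1 partner of Rbpjl, was 39.7 and 40.9 CPM against 13.2 and 12.8 CPM. Pdx1 itself was 236 and 244 CPM against 99.5 and 112 CPM.

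Other cell types differed between the same libraries. The summed level of 15 mesenchyme markers was 383 and 364 CPM in dorsal and 1361 and 926 CPM in ventral libraries, that of 14 hepatoblast markers 2160 and 1983 CPM against 5016 and 4552 CPM, and that of 16 endocrine markers 3877 and 4046 CPM against 112 and 68.9 CPM. Their part in the acinar differences was not tested. When each library was left out in turn, 8 to 10 of the members were called. The calls of Clps, Cpa1, Pnliprp1, Cela1, Cckar and Reg1 held in all 4 cases, and those of Prss2, Pla2g1b, Klk1, Rbpjl, Bhlha15 and Cel were each lost in at least 1.

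**Figure D3:**
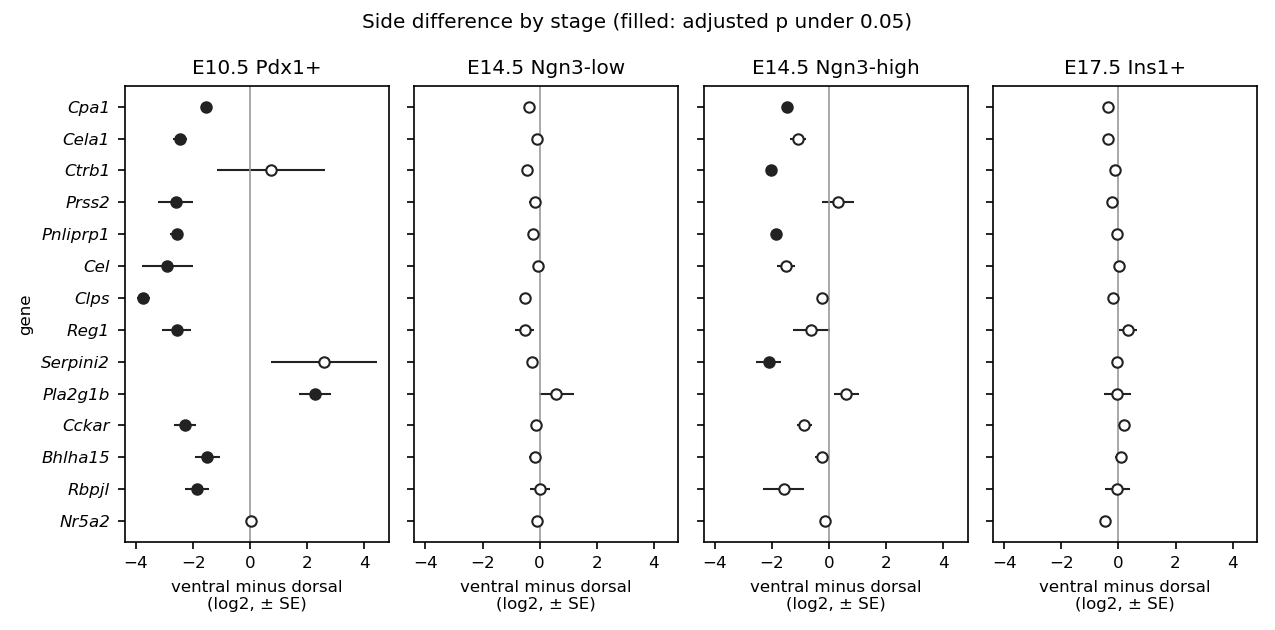
Log2 difference between ventral and dorsal bulk libraries (points, bars ± SE) for 14 acinar genes at 4 stages, with filled points for an adjusted p under 0.05. At E10.5 most points lie left of 0, Pla2g1b lies right of it and Nr5a2 at 0.03, no point is filled in Ngn3-low or Ins1+ libraries, and Cpa1, Ctrb1, Pnliprp1 and Serpini2 are filled in Ngn3-high libraries.

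Between E10.5 Pdx1+ and E14.5 Ngn3-low libraries the acinar genes rose on both sides. On the dorsal side 23 of 33 rose and 3 fell, where 59.8% of all genes were called, with a median log2 difference of 2.85 for the members and -0.0431 for all genes. On the ventral side 24 rose and 1 fell, where 55.2% of all genes were called, with medians of 4.79 and 0.0101. The summed level of the 33 genes went from 435 and 438 CPM to 4610.3 and 4100 CPM dorsally and from 225 and 227.5 CPM to 3795 and 3313 CPM ventrally. The 2 sorts differ in reporter and in the cells they collect as well as in age.

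In bulk, Ctrb1 had the largest rise of the genes that had reads at E10.5. It went to 1027 and 968.5 CPM in dorsal and 798 and 679.9 CPM in ventral Ngn3-low libraries, a ratio of 19250 dorsally (95% counting interval 3455 to 760400) that rests on 1 read at E10.5, and of 8017 ventrally (2219 to 66210). These intervals cover counting error in the bulk libraries only. E10.5 Pdx1+ single cells of both sides held more reads of Ctrb1, as given at the end, so the ratios describe the bulk libraries alone. Cpa1 went to 1294 and 1112 CPM dorsally (log2 difference 2.85, SE 0.12, adjusted p = 9.82e-12) and to 1012 and 862.5 CPM ventrally (4.05, SE 0.13, adjusted p = 6.14e-13). Cela1 reached 94.3 and 88.3 CPM dorsally and 92.6 and 77.8 CPM ventrally. All Ngn3-low values of these 3 peptidases lay above all E10.5 values of their side, and the share of all genes for which this held was not counted.

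Trypsinogens stayed low at this stage. Prss2 reached 8.24 and 8.96 CPM in dorsal and 6.99 and 8.36 CPM in ventral Ngn3-low libraries, and Try5 1.301 to 2.38 CPM over the 4 libraries. Prss1, Prss3, Try4 and Try10 were at 0.711 CPM or less in all of them. The other carboxypeptidase, Cpb1, was 2.23 and 3.26 CPM in dorsal and 3.50 and 2.49 CPM in ventral libraries, and Cela2a 0.237 to 1.18 CPM.

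Among lipase genes, Pnliprp1 rose most clearly on both sides. It reached 1187 and 1038 CPM dorsally (log2 difference 6.12, SE 0.18, adjusted p = 4.1e-13) and 1010 and 898 CPM ventrally (8.47, SE 0.21, adjusted p = 1.34e-13). Cel reached 172 and 138.5 CPM dorsally and 166 and 130.3 CPM ventrally. Clps went to 193 and 209 CPM dorsally and 148 and 132 CPM ventrally, and Pnlip stayed between 0.188 and 0.372 CPM. The call of Pnlip on the ventral side, against 0 reads at E10.5, was lost when a library was left out. Amy1 did not pass on either side, with 1.92 and 2.00 CPM dorsally and 1.55 and 2.31 CPM ventrally, and Rnase1 was at 0.389 CPM or less.

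Serpini2, a pancreatic serine protease inhibitor, went from 0 reads to 43.6 and 39.7 CPM dorsally, at least 268-fold against the limit of 3 reads over the group. Ventrally it went from 0.103 and 0 CPM to 36.0 and 33.5 CPM. Cckar went to 162 and 137 CPM dorsally (log2 difference 4.99, SE 0.22, adjusted p = 8.22e-11) and to 142.5 and 128 CPM ventrally (7.12, SE 0.27, adjusted p = 2.34e-11). Rbpjl reached 128 and 78.8 CPM dorsally and 115.5 and 92.0 CPM ventrally, and Bhlha15 78.7 and 50.8 CPM dorsally and 69.7 and 46.6 CPM ventrally. For both regulators library 1 was the higher of the pair on each side. The dorsal rise of Rbpjl (adjusted p = 0.0141) lost its call when either dorsal E10.5 library or dorsal Ngn3-low library 1 was left out. Nr5a2, already high at E10.5, rose to 193 and 201 CPM dorsally (log2 difference 0.52, SE 0.11, adjusted p = 0.000847) and 173 and 196 CPM ventrally (0.39, SE 0.11, adjusted p = 0.00702). Both calls were lost against a 1.5-fold change, and the ventral one without ventral Ngn3-low library 2.

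Few members fell. Dorsally these were Ctrl, a chymotrypsin-like protease (1.39 and 1.61 to 0.619 and 0.313 CPM), Gp2 (1.18 and 0.803 to 0.310 and 0.0626 CPM) and Klk1 (0.536 and 0.402 to 0.124 and 0.0626 CPM), each of which lost its call when 1 library was left out. Ventrally it was Pla2g1b (2.77 and 2.33 to 0.259 and 0.948 CPM). Per kilobase, Ctrb1 led in Ngn3-low libraries with a mean of 1125 RPKM dorsally and 833 RPKM ventrally, ahead of Cpa1 (759.9 and 592 RPKM), Pnliprp1 (687 and 589 RPKM) and Clps (365 and 255 RPKM). At E10.5 the leading gene per kilobase was Cpa1 on the dorsal side (106 RPKM) and Nr5a2 on the ventral side (37.9 RPKM, with Cpa1 at 35.7 RPKM).

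The rise differed between the sides for 7 members, each time larger on the ventral side, where 12.0% of all genes passed this test of the difference itself. They were Clps (log2 difference between the rises 3.23, SE 0.27, adjusted p = 1.49e-06), Prss2 (2.45), Cela1 (2.36), Pnliprp1 (2.35), Cckar (2.13), Reg1 (2.04) and Cpa1 (1.21, SE 0.16, adjusted p = 6.97e-05). Reg1 and Prss2 lost this call when single libraries were left out, Reg1 in 7 and Prss2 in 3 of 8 cases. These tests share the E10.5 libraries with the side comparison above. At E14.5, 0 of 33 members passed the test between ventral and dorsal Ngn3-low libraries by edgeR (5 at an unadjusted p under 0.05, against 3.39% of all genes, and 0 by DESeq2), where 0.0170% of all genes were called. Without the filter on low counts 2 members, Clps and Ctrb1, were called. The summed level of the 33 genes was lower in both ventral than in both dorsal libraries, and the missing calls do not show that the sides were alike. The 5 were Clps, Cpa1, Ctrb1, Cela2a, all lower in ventral libraries, and Ctrl, higher there. The log2 difference of Clps was -0.52 (SE 0.14, adjusted p = 0.651) and that of Cpa1 -0.36 (SE 0.11, adjusted p = 0.822).

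Other cell types were also in the Ngn3-low libraries. The summed level of 10 endothelial markers was 882 and 449.5 CPM in dorsal and 955 and 300.4 CPM in ventral Ngn3-low libraries, against 13.3 to 107 CPM at E10.5, and 14 trunk and duct markers summed to 4839 to 5853 CPM, against 1394 to 1523 CPM. Of these lists, 10 of 10 endothelial and 14 of 14 trunk and duct genes rose on the dorsal side, and 9 and 11 on the ventral side. Their part in the acinar rise was not tested.

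A second list of 40 further acinar genes, of which 24 were tested, also mostly rose. Between E10.5 Pdx1+ and Ngn3-low libraries 16 rose and 3 fell on the dorsal side, where 27.6% of all genes rose and 32.2% fell. On the ventral side 15 rose and 3 fell, where 27.1% of all genes rose and 28.1% fell. Amy2b, a pancreatic amylase, was 21.3 and 16.6 CPM in dorsal and 17.9 and 18.9 CPM in ventral Ngn3-low libraries. At E10.5, Rab3d, Muc1, Ptf1a, Xbp1 and Gamt were among those lower in ventral libraries, and Mia2 and Spink3 were higher.

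In E14.5 Ngn3-high cells, which are endocrine precursors, most acinar RNA was lower than in Ngn3-low cells of the same side. On the dorsal side 21 of 33 members fell and 2 rose, where 61.3% of all genes were called, with a median log2 difference of -3.74 for the members and -0.00584 for all genes. On the ventral side 23 fell and 2 rose, where 61.8% of all genes were called, with medians of -3.34 and 0.0. The summed level of the 33 genes was 213 and 239 CPM in dorsal and 113 and 141 CPM in ventral Ngn3-high libraries. Of the further acinar genes, 19 of 24 fell dorsally and 17 ventrally, and 1 rose (Rab3d).

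Cpa1, Ctrb1 and Pnliprp1 were reduced to between 0.865% and 3.47% of their Ngn3-low level. Cpa1 was 36.0 and 38.8 CPM in dorsal Ngn3-high libraries (log2 difference from Ngn3-low -5.01, SE 0.13, adjusted p = 2.59e-14) and 12.1 and 14.7 CPM in ventral ones (-6.12, SE 0.14, adjusted p = 7.8e-15). Ctrb1 was 34.1 and 35.2 CPM dorsally and 5.58 and 11.2 CPM ventrally. Pnliprp1 was 29.8 and 31.3 CPM dorsally and 6.32 and 10.2 CPM ventrally. Each of these lay far below every Ngn3-low library and was higher on the dorsal side. Cel was 4.95 and 4.77 CPM against 1.12 and 2.23 CPM, Cela1 3.84 and 4.59 CPM against 1.41 and 2.35 CPM, and Prss2 0.409 and 0.459 CPM against 0.223 and 0.783 CPM. Serpini2 was 1.06 and 1.01 CPM dorsally and 0.223 and 0.241 CPM ventrally.

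Clps, Bhlha15 and Nr5a2 kept the largest shares of their Ngn3-low level. Over members with at least 5 CPM in Ngn3-low libraries, the Ngn3-high level was a median of 3.50% of it dorsally (14 members, 1.83 to 27.5%) and 2.12% ventrally (13 members, 0.668 to 32.7%). Clps, at 49.0 and 61.6 CPM dorsally and 41.9 and 49.7 CPM ventrally, stood at 27.5% and 32.7%. Bhlha15, at 16.2 and 16.0 CPM dorsally and a mean of 13.6 ± 1.31 CPM (SD, n = 2) ventrally, stood at 24.8% and 23.4%. Nr5a2, at 22.4 and 29.3 CPM dorsally and 21.2 and 24.7 CPM ventrally, stood at 13.1% and 12.5%. Rbpjl, at 4.05 and 2.94 CPM dorsally and 1.04 and 1.33 CPM ventrally, stood at 3.38% and 1.14%, and Cckar, at 5.15 and 5.41 CPM dorsally and 2.68 and 3.07 CPM ventrally, at 3.53% and 2.12%. The median share was 1.57% and 1.09% for endothelial, 1.95% and 1.98% for immune and 14.7% and 15.4% for trunk and duct markers. How much of the acinar RNA came from other cells in the sort was not tested.

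The 2 members that rose were low throughout. Pla2g1b was 1.80 and 2.39 CPM in dorsal and 3.20 and 3.07 CPM in ventral Ngn3-high libraries, above 0.948 CPM or less in Ngn3-low. Klk1 was 0.450 and 0.642 CPM dorsally and 0.149 and 0.723 CPM ventrally, and its call was lost on each side when 1 library was left out. Amy1 stayed at 0.892 to 1.33 CPM, Rnase1 at 0.301 CPM or less and Pnlip at 0.120 CPM or less in the 4 libraries.

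**Figure D4:**
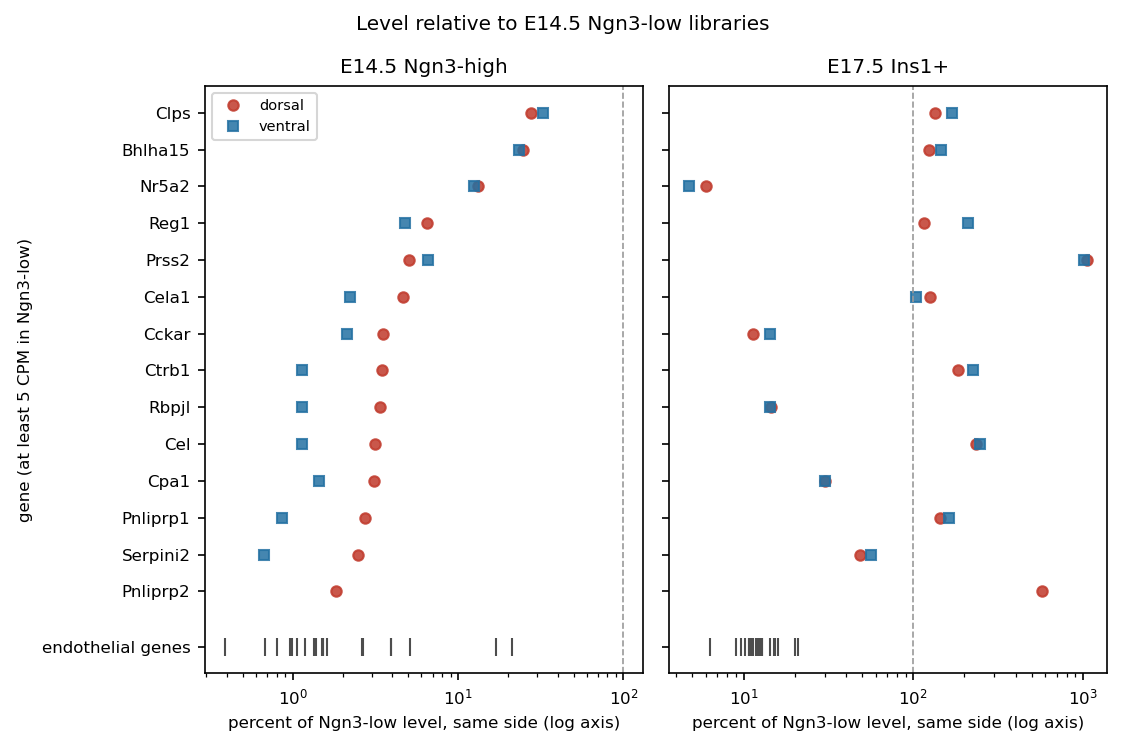
Level of acinar genes with at least 5 CPM in Ngn3-low libraries, in Ngn3-high (left) and Ins1+ libraries (right), as a percent of the Ngn3-low level of the same side (log axis, circles dorsal, squares ventral, ticks endothelial genes, dashed line at 100%). In Ngn3-high libraries Clps, Bhlha15 and Nr5a2 lie highest. In Ins1+ libraries Nr5a2, Cckar, Rbpjl, Cpa1 and Serpini2 lie below the line and Prss2 at 1056% and 1007%.

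Ngn3-high cells showed a side difference that Ngn3-low cells did not pass the test for. Cpa1 (log2 difference ventral minus dorsal -1.47, SE 0.13, adjusted p = 2.15e-05), Pnliprp1 (-1.87, SE 0.17, adjusted p = 3.83e-05), Ctrb1 (-2.02, SE 0.20, adjusted p = 0.000325) and Serpini2 (-2.12, SE 0.45, adjusted p = 0.0494) were lower in ventral libraries, 4 of 33 members, where 0.537% of all genes were called and DESeq2 called 5 members. The median log2 difference was -0.26 for the members and 0.0 for all genes. Serpini2 lost its call whichever of the 4 libraries was left out, and the other 3 kept theirs. Of the further acinar genes, Gata4 was among those lower in ventral libraries. The summed endothelial markers were 26.1 and 19.7 CPM in dorsal and 24.4 and 15.54 CPM in ventral Ngn3-high libraries. The immune markers were 17.8 and 14.6 CPM against 18.1 and 11.1 CPM, so both lists overlapped between the sides. Trunk and duct markers also overlapped. The hepatoblast sum was lower in ventral libraries (2287 and 2201 against 1826 and 1682 CPM). Only 1 of its 14 genes, Ttr, was called, and the median log2 difference of that list was 0.0797. The endocrine sum was higher in ventral libraries (15743 and 16647 against 17163 and 18123.5 CPM), with 0 of 16 genes called. So was the pancreatic progenitor sum (2669 and 2698 against 2840 and 2869 CPM), although the 1 gene called of 14, Gata4, was lower. The part of other cells in the side difference was not tested.

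The fall from Ngn3-low to Ngn3-high, tested as a difference between the sides, was larger ventrally for Pnliprp1 (-1.64, SE 0.22, adjusted p = 0.0145) and Cpa1 (-1.11, SE 0.17, adjusted p = 0.0336), where 0.0283% of all genes, 5 in number, passed. Both calls were lost without dorsal Ngn3-high library 1, dorsal Ngn3-high library 2 or dorsal Ngn3-low library 2, and DESeq2 called 4 members. This test uses the same libraries as the side comparison in Ngn3-high cells.

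In E17.5 Ins1+ libraries, sorted as insulin-producing cells, acinar RNA was high. Against Ngn3-high libraries 30 of 33 members rose and 1 (Nr5a2) fell on each side, where 47.4% of all genes were called dorsally and 51.0% ventrally. Amy1 and Pla2g1b did not pass. The median log2 difference was 5.73 dorsally and 6.34 ventrally for the members, against 0.0 and 0.00712 for all genes. The 33 genes summed to 5838 and 5567 CPM in dorsal and 5309 and 5225 CPM in ventral libraries, more than in any Ngn3-low library, beside 78388 to 96570 CPM for 16 endocrine markers.

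Several enzymes that were near 0 in Ngn3-high libraries were well above it here. Cpb1 was 234 and 254 CPM in dorsal and 221 and 239 CPM in ventral Ins1+ libraries, from 0.181 CPM or less in Ngn3-high. Cela2a was 212.5 and 223 CPM dorsally and 179 and 188 CPM ventrally, and Cela3b 127 and 127.5 CPM dorsally and 121 and 122 CPM ventrally. In each of the 3, the 4 libraries lay within a narrow range. Rnase1, the secreted ribonuclease, was 53.9 and 49.1 CPM dorsally and 62.8 and 64.8 CPM ventrally. Among trypsinogens, Prss2 was 83.8 and 97.7 CPM dorsally and 71.6 and 83.1 CPM ventrally, Prss1 42.4 to 53.1 CPM over the 4 libraries and Try10 22.4 to 26.2 CPM. All of them were far above Ngn3-low libraries.

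Enzymes that were already abundant in Ngn3-low libraries did not all move alike. Ctrb1 was 1814 and 1849.9 CPM in dorsal and 1665 and 1670.2 CPM in ventral Ins1+ libraries, 184% and 226% of the Ngn3-low level. Pnliprp1 was 1691 and 1492 CPM dorsally and 1585 and 1491 CPM ventrally, and Cel 408 and 320.2 CPM dorsally and 379.9 and 350.4 CPM ventrally. Cela1 was 112 and 116 CPM dorsally and 93.3 and 82.9 CPM ventrally. These 4 enzymes were at or above their Ngn3-low level, whereas Cpa1, at 392.2 and 335 CPM dorsally and 288 and 279.8 CPM ventrally, stood at 30.2% and 30.3% of it. Amy1 was 1.76 and 2.06 CPM dorsally and 1.23 and 0.938 CPM ventrally.

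The regulators parted here. Bhlha15 was 78.4 and 82.5 CPM in dorsal and 80.4 and 89.4 CPM in ventral Ins1+ libraries, 124% and 146% of the Ngn3-low level. Rbpjl was 19.7 and 10.4 CPM dorsally and 17.6 and 12.0 CPM ventrally, 14.6% and 14.3%, and Cckar 20.6 and 13.2 CPM dorsally and 22.7 and 16.0 CPM ventrally, 11.3% and 14.3%. Nr5a2 was lower than in any other bulk group of its side, at 13.4 and 10.4 CPM dorsally (log2 difference from Ngn3-high -1.08, SE 0.14, adjusted p = 1.2e-05) and 8.63 and 8.86 CPM ventrally (-1.40, SE 0.15, adjusted p = 1.15e-06). Ptf1a stood at 3.13 and 1.95 CPM dorsally and 2.16 and 2.502 CPM ventrally.

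Markers of some other cells rose in the same libraries. Against Ngn3-high, 7 of 8 immune genes rose on each side, and their sum was 223 and 95.4 CPM in dorsal and 285.5 and 128 CPM in ventral Ins1+ libraries. The sum of 15 mesenchyme markers was 2164 and 912 CPM dorsally and 3044 and 1251 CPM ventrally. In both lists library 1 stood above library 2 on each side. Of 10 endothelial genes, 1 rose dorsally and 7 ventrally, and 0 fell on either side. Of 10 erythroid genes, 7 rose and 1 fell dorsally. The erythroid sum was 118 to 145 CPM over the Ins1+ libraries, against 11.5 to 28.9 CPM over the Ngn3-high libraries. Other lists were mixed. Of 14 trunk and duct genes, 5 rose and 6 fell dorsally, and 7 rose and 4 fell ventrally. Of 14 hepatoblast genes, 1 rose and 3 fell dorsally. The share of acinar cells or of free acinar RNA in the sorts was not tested. Between the sides, 0 of 33 members passed the test in Ins1+ libraries by edgeR (3 at an unadjusted p under 0.05, against 2.96% of all genes, and 0 by DESeq2), where 0.0283% of all genes were called. The 3 were Cpa1, Nr5a2 and Cela1, each lower in both ventral than in both dorsal libraries. The same held for the summed level of the 33 genes, and the missing calls do not show that the sides were alike.

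The read shares of the 33 genes changed with stage. A read share depends on gene length as well as on level, so it does not rank levels. By read share of the 33 genes, Cpa1 led in dorsal E10.5 libraries (39.3% and 37.4%) and Nr5a2 in ventral ones (61.4% and 62.5%). Clps led in Ngn3-high libraries (23.0% and 25.8% dorsally, 37.0% and 35.2% ventrally) and Ctrb1 in Ins1+ libraries (31.1% to 33.2%). Per kilobase, Ctrb1 led in Ins1+ libraries, with a mean of 2065 RPKM dorsally and 1880.3 RPKM ventrally, ahead of Pnliprp1 (983 and 949.9 RPKM) and Clps (492 and 432 RPKM).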

How the data were processed

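Bulk libraries were made from sorted cells with poly(A) selection and a directional kit, and single-cell libraries with Smart-seq2, per the labels. The deposited values are raw read counts per gene. Per the submitters' processing notes, TopHat2 2.1.0, Bowtie2 and HTSeq 0.6.0 were used with GRCm38 (mm10). For the annotation release and the strand setting, the value used is not given in the sources used here.

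Counts were tested with edgeR 4.0.16 (R 4.3.3; TMM, filterByExpr, robust quasi-likelihood fit, Benjamini-Hochberg adjustment) in 1 model of 16 bulk libraries (17690 genes) and 1 model of 37 sets of 3 or more summed cells (17433 genes). DESeq2 1.42.0 was an alternative. Tables and figures used Python 3.11.15. RPKM was computed from the deposited gene lengths. Both scripts for tests were checked on simulated data. Bounds against 0 use 3 reads over the group, and intervals are exact (95%) and cover counting error only. A group of 25 ventral E9.5 cells carries a growth protocol for human stem cells in its labels and was kept as labelled, mouse.

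The members, gene lists and the rule for named genes were chosen with earlier results of these data known. All 33 genes are counted, and values are given for 13 fixed members, by library or in places as a limit, a range or a mean. Per comparison up to 6 called members in each direction with the smallest adjusted p are named. A gene of the list of further acinar genes is not reported here by name.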

Additional observations from a re-analysis of the deposited data

Results flagged for a closer look

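Of 24 gene-by-group tests for a set far from the others, 9 were met. Chance meets about 1 in 20 groups of continuous values, a rate that does not apply to groups where most sets are at or near 0 and 1 set holds a few reads, as in most of the Pdx1-low cases. In dorsal cells these were Cpa1 in Pdx1-high set 5 (683.6 CPM, next 236.9) and, in Pdx1-low set 4, Cpa1 (14.77 CPM, next 5.44) and Rbpjl (3.693 CPM, next 0.1262). In ventral cells they were Clps in Pdx1-high set 4 (156.6 CPM, next 33.19) and, in Pdx1-low sets, Cpa1 in set 2 (34.09 CPM), Cela1 in set 3 (1.049 CPM), Clps in set 3 (0.7489 CPM), Pnliprp1 in set 3 (7.789 CPM) and Rbpjl in set 6 (0.06243 CPM, against 0 in the others).

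The rise from E10.5 Pdx1+ to Ngn3-low differed between the sides, by a test of the difference, for Clps (log2 3.228), Prss2 (2.45), Cela1 (2.362), Pnliprp1 (2.351), Cckar (2.132), Reg1 (2.044) and Cpa1 (1.206). The change from Ngn3-low to Ngn3-high differed for Pnliprp1 (-1.644) and Cpa1 (-1.109).

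The 4 E15.5 liver cells, which entered no comparison, held 33 reads of Pnliprp1, 35 of Amy1 and 18 of Nr5a2, each in 3 of 4 cells.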

How the results depend on the processing

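Over single genes, 1929 of 2062 values under alternatives kept direction and side of the threshold, 133 lost the call and 0 reversed. Without a filter on low counts, 2 members differed between the sides in Ngn3-low (0 with it) and 8 in Ngn3-high libraries (4 with it). The difference between sides of the change from Ngn3-low to Ngn3-high was called for 2 members, for 4 by DESeq2, 0 at a 1.5-fold threshold, 6 without the filter, 1 with a spread that was not robust (an alternative chosen after seeing the data) and 0 to 2 with single libraries left out. In sets, DESeq2 called 3 members in E10.5 against E9.5 dorsal cells, 4 in dorsal and 5 in ventral Pdx1-high against Pdx1-low, where leaving out single sets gave 4 to 7 and 1 to 3. At 5 CPM the E10.5 onset class held 3 genes and the class never reached 5, and at 0.5 CPM the latter held 0.

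Bulk groups share only the numbers 1 and 2, so the pairing is not known. With the replicate block, the side difference of the rise was called for 8 members, ventral against dorsal Ngn3-high for 5 and dorsal Ngn3-high against Ngn3-low for 24, the other bulk counts did not change, and Pdx1-high against Pdx1-low was called for 5 dorsally and 1 ventrally. Same-numbered samples correlated between -0.101 and 0.743 in bulk and between -0.147 and 0.267 in sets. With 2 libraries a group and genes under 1 CPM, small differences could not be detected.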

Other observations

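Amy2a5, a pancreatic amylase gene with near-identical copies, was 51.5 CPM in dorsal Ins1+ library 2 and 0.241 CPM in library 1, against 0.385 and 0.625 CPM in the ventral pair. Ctrb1, nearly absent from E10.5 bulk libraries, had a read in 11 of 27 dorsal (51 reads) and 20 of 59 ventral (130 reads) E10.5 Pdx1+ cells, and in 0 of 28 dorsal and 2 of 39 ventral Pdx1-high cells. Bhlha15 was 23.7 and 30.7 CPM in the liver bud sets.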
